A study of Homo sapiens with 2 samples.

Results

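The TNF ligand and TNF receptor superfamilies were measured in EBC1-R cells and in the EBC1 cells they came from. Members were taken by name, as every protein-coding gene whose symbol starts with TNFRSF or TNFSF followed by a number, without antisense transcripts and pseudogenes, and with at least 1 probe set annotated to that gene alone. This gave 28 genes, 19 receptors and 9 ligands, of 18377 genes in the table. Another 5 family genes lie on probe sets that name several genes (TNFRSF6B, TNFRSF10C, TNFSF12, TNFSF13 and the readthrough locus TNFSF12-TNFSF13) and have no value here. EBC1-R cells are descendants of EBC1 that survived stepwise exposure to PHA-665752, an inhibitor of the MET receptor tyrosine kinase, and were then kept in medium with 3 µM of it. EBC1, the wild type parental line, was derived from a squamous carcinoma of the lung and carries an amplified MET gene. Resistance and the presence of the drug cannot be told apart, and whether EBC1-R is a clone or a pool of survivors is not stated in the labels. The comparison addresses which transcripts accompany resistance to MET inhibition. There was 1 array for EBC1-R and 1 for EBC1, so each value is a single measurement with no replicate error, and no test between the groups was possible. Differences are therefore given as sizes.

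Ligands of the TNF superfamily are mostly trimeric membrane proteins that can also be shed, and each binds 1 or more receptors built from cysteine-rich repeats. Receptors with a cytoplasmic death domain can recruit FADD and caspases and start apoptosis, receptors without one recruit TRAF adaptors and signal to NF-kB and MAP kinases, and decoy receptors bind ligand without signalling a death response. In epithelial tumours the family is best known for TRAIL (TNFSF10), whose death receptors are drug targets, and for TNF itself, which drives inflammatory transcription.

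Levels are log2 intensities as deposited, with the log base inferred from their range of 4.22 to 14.2 in EBC1-R and 4.21 to 14.1 in EBC1. Column medians were 6.71 in EBC1-R and 6.73 in EBC1. Intensities of different probe sets depend on their probes, so the position of a gene on its array, such as its percentile, describes the intensity and does not rank transcripts by abundance. The central 95% of differences over all genes ran from -0.65 to 0.75 log2 units. The epithelial markers EPCAM and CDH1 were at 11.25 and 12.06 in EBC1-R, and at 11.33 and 11.96 in EBC1. Of the 6 epithelial markers, the keratins KRT8, KRT18 and KRT19 were lower in EBC1-R, by 1.77-fold, 1.72-fold and 1.86-fold, and their part in the results below was not tested. The 4 measured squamous markers were KRT5, at 6.11 in EBC1-R and 6.17 in EBC1, KRT14, at 6.97 in EBC1-R and 7.26 in EBC1, SOX2, at 6.39 in EBC1-R and 6.53 in EBC1, and DSG3, at 5.13 in EBC1-R and 5.19 in EBC1. Without detection calls these intensities do not settle whether squamous transcripts were present. Of the 9 leukocyte markers, PTPRC, which marks nearly all leukocytes, was at 4.65 in EBC1-R and 4.56 in EBC1, close to the bottom of each array's range. CD68, a lysosomal protein that is not restricted to leukocytes, was at 11.45 in EBC1-R and 11.04 in EBC1. Median differences were -0.08 over the leukocyte markers, -0.05 over 6 fibroblast and 0.03 over 6 endothelial markers, with 0 members of these lists 1.5-fold different. Over all genes 4.41% were 1.5-fold higher and 3.16% lower, so a count of 0 in lists this short is near the background.

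Most of the superfamily differed little between the lines, and 5 members differed at least 1.5-fold. TNFRSF9 and TNFRSF1B, both receptors without a death domain, were more than 2-fold higher in EBC1-R, and the ligand TNFSF15 was 1.92-fold higher. The death receptor TNFRSF10A was 2.19-fold lower and the TWEAK receptor TNFRSF12A 1.54-fold lower, the last of these within the central 95% of all genes. In all, 2 of 28 members, 7.14%, were at least 2-fold higher, where 1.26% of all genes were. At least 2-fold lower was 1 member, 3.57%, where 0.887% of all genes were. At the smaller threshold of 1.5-fold, 3 members were higher, where 4.41% of all genes were, and 2 were lower, where 3.16% were. Counts this small in 1 pair of arrays describe these arrays only, and in cultures measured in bulk a change in some cells and a smaller change in all cells cannot be told apart. The median difference over the 28 members was -0.12, and that over all genes was -0.03.

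**Figure D1:**
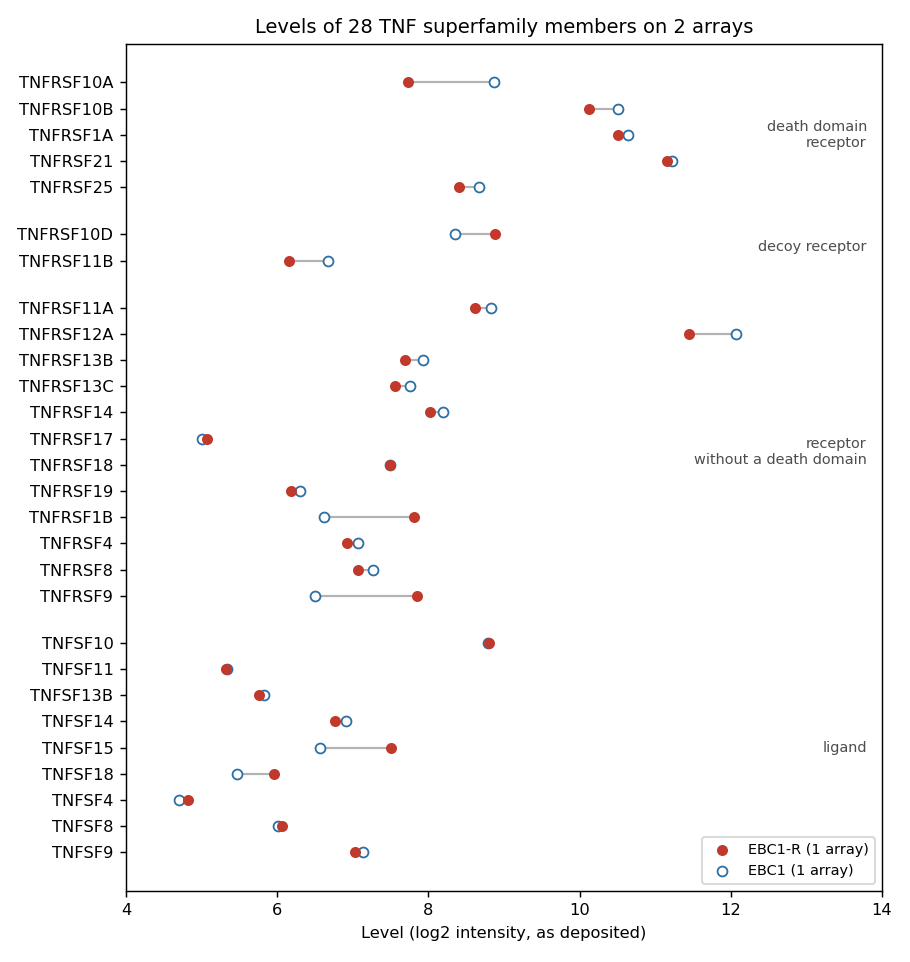
Level of each of the 28 members on the log2 intensity axis, with a filled point for EBC1-R and an open point for EBC1, 1 array each, grouped by role. The wide gaps are at TNFRSF10A, TNFRSF1B, TNFRSF9 and TNFSF15, and for most other genes the points nearly touch.

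Among receptors without a death domain, TNFRSF9 (CD137), a costimulatory receptor of activated T cells, was at 7.85 in EBC1-R and 6.50 in EBC1. That is a difference of 1.35, or 2.55-fold, which ranked 102 from the top of 18377 genes. The level stood at percentile 67.2 of all probe sets in EBC1-R and at percentile 45.9 in EBC1. TNFRSF1B, the receptor that answers membrane-bound TNF and lacks a death domain, was at 7.81 in EBC1-R and 6.62 in EBC1. Its difference of 1.19, or 2.28-fold, ranked 145 from the top. The parental level of both receptors lay below the middle of the array, where no detection call separates signal from background. The fold in transcript may therefore be larger or smaller than the value given. With 16 added to linear intensities, the difference was 1.21 for TNFRSF9 and 1.07 for TNFRSF1B.

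TNFSF15 (TL1A), a ligand first described in endothelial cells, was at 7.51 in EBC1-R and 6.56 in EBC1. The difference was 0.94 and ranked 260 from the top. The 3 members that were at least 1.5-fold higher in EBC1-R thus all stood below percentile 50 in EBC1, and none of them reached the median gene level of 7.28 when both arrays were averaged.

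Promoter windows of these 3 genes are shown because they are the members that were higher together. Each runs 5′ to 3′ on the gene's strand from 250 bases before to 50 bases after the gene's start, from RefSeq on GRCh38.p14. Capitals mark matches to an NF-kB motif (GGG, any pair of bases, then TTTCC) or to TGANTCA, an AP-1 motif that reads the same on either strand. Both strands were searched, and no matches overlapped.
TNFRSF9 (chr1:7940790-7941089, minus strand): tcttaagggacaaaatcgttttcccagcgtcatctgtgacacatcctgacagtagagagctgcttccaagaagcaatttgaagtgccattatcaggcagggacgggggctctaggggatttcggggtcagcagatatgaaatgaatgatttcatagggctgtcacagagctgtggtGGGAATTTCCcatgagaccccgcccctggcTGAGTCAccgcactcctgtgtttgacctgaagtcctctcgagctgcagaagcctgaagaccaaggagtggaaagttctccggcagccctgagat
TNFRSF1B (chr1:12166741-12167040, plus strand): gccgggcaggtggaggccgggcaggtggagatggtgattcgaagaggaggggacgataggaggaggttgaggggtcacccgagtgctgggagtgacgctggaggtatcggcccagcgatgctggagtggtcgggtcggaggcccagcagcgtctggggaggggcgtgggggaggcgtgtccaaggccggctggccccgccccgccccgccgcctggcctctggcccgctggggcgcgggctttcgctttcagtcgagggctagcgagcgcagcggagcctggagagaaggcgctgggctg
TNFSF15 (chr9:114792481-114792780, minus strand): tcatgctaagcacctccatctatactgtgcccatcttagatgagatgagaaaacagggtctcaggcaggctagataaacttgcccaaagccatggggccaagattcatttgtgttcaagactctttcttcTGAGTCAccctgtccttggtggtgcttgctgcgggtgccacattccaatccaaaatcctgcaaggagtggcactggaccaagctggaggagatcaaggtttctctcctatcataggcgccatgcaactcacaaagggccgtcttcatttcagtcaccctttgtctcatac
TNFRSF9 held an NF-kB match, GGGAATTTCC, that begins 74 bases before the start, and an AP-1 match, TGAGTCA, that begins 44 bases before it. TNFSF15 held the same AP-1 letters 120 bases before its start. TNFRSF1B held neither motif, and its window was 72.0% G and C, against 52.3% for TNFRSF9 and 49.3% for TNFSF15. RefSeq windows were found for 19 of the 28 members, in 23 windows. The NF-kB letters occurred in 1 of these 19 genes, TNFRSF9, and in 1.91% of all 35116 windows in the table. The AP-1 letters occurred in 4 of the 19, TNFRSF8, TNFRSF9, TNFSF14 and TNFSF15, and in 7.71% of all windows. For both motifs members were counted by gene and the background by window, so the shares are not on the same unit. TNFRSF8 and TNFSF14 carried the AP-1 letters with differences of -0.20 and -0.15. A match describes the letters of the window and not binding of a factor.

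The remaining receptors without a death domain were lower or close to level. TNFRSF12A (Fn14), the receptor for TWEAK and induced by growth factors in many cells, was at 11.45 in EBC1-R and 12.07 in EBC1, a difference of -0.62. It was bright on both arrays, at percentile 97.9 in EBC1-R and 99.0 in EBC1. TNFRSF11A (RANK), which answers RANKL in osteoclasts and mammary epithelium, was at 8.62 in EBC1-R and 8.83 in EBC1. The lymphocyte receptors of the BAFF and APRIL system were all within 0.24 either way, with TNFRSF13B (TACI) at 7.69 in EBC1-R and 7.93 in EBC1, TNFRSF13C (the BAFF receptor) at 7.56 in EBC1-R and 7.75 in EBC1, and TNFRSF17 (BCMA) at 5.07 in EBC1-R and 5.001 in EBC1. TNFRSF14, a herpesvirus entry receptor that binds LIGHT, was at 8.03 in EBC1-R and 8.19 in EBC1. Other receptors of activated T cells lay within 0.20 of no difference. TNFRSF4 was at 6.92 in EBC1-R and 7.07 in EBC1, TNFRSF8 at 7.06 in EBC1-R and 7.26 in EBC1, and TNFRSF18 at 7.49 on both arrays. TNFRSF19, a receptor of embryonic epithelium and the nervous system, was at 6.18 in EBC1-R and 6.30 in EBC1. Of the 12 receptors in this class, 8 were lower and 4 higher by any amount, and the median difference was -0.16. TNFRSF18, counted as higher, was lower under quantile normalization.

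All 5 death domain receptors among the members were lower in EBC1-R, with differences from -1.13 to -0.07, and under every scaling tried. Over all genes 55.5% were lower by any amount. Among genes at or above the median level, where all 5 receptors lie, 50.6% were. The direction of any 1 gene is thus common in this table, and how often 5 genes are lower together was not tested. The class is limited by symbol. Under other names, the death domain receptor FAS was higher by 0.19. NGFR and EDAR, which also carry death domains, differed by -0.13 and -0.05. TNFRSF10A, a receptor through which TRAIL triggers apoptosis, was at 7.74 in EBC1-R and 8.86 in EBC1. Its difference of -1.13 ranked 114 from the bottom of 18377 genes. TNFRSF10B, the other TRAIL death receptor, was at 10.13 in EBC1-R and 10.50 in EBC1, a difference of -0.37 or 1.29-fold lower. TNFRSF25, the receptor of TNFSF15, was at 8.41 in EBC1-R and 8.67 in EBC1. TNFRSF1A, the widely expressed TNF receptor with a death domain, was at 10.51 in EBC1-R and 10.64 in EBC1. TNFRSF21, a death receptor studied mostly in neurons and lymphocytes, was at 11.15 in EBC1-R and 11.22 in EBC1. The median difference of the class was -0.26, and TNFRSF10A alone passed 1.5-fold.

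The decoy receptors differed in opposite directions. TNFRSF10D, which binds TRAIL but has a truncated death domain, was at 8.87 in EBC1-R and 8.35 in EBC1, a difference of 0.52 or 1.44-fold higher. TNFRSF11B (osteoprotegerin), a soluble decoy for RANKL that also binds TRAIL, was at 6.16 in EBC1-R and 6.67 in EBC1, a difference of -0.52. Neither reached 1.5-fold. TNFRSF10A, TNFRSF10B and TNFRSF10D are related genes that neighbour each other on chromosome 8, and hybridisation of one transcript to another's probes was not tested.

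**Figure D2:**
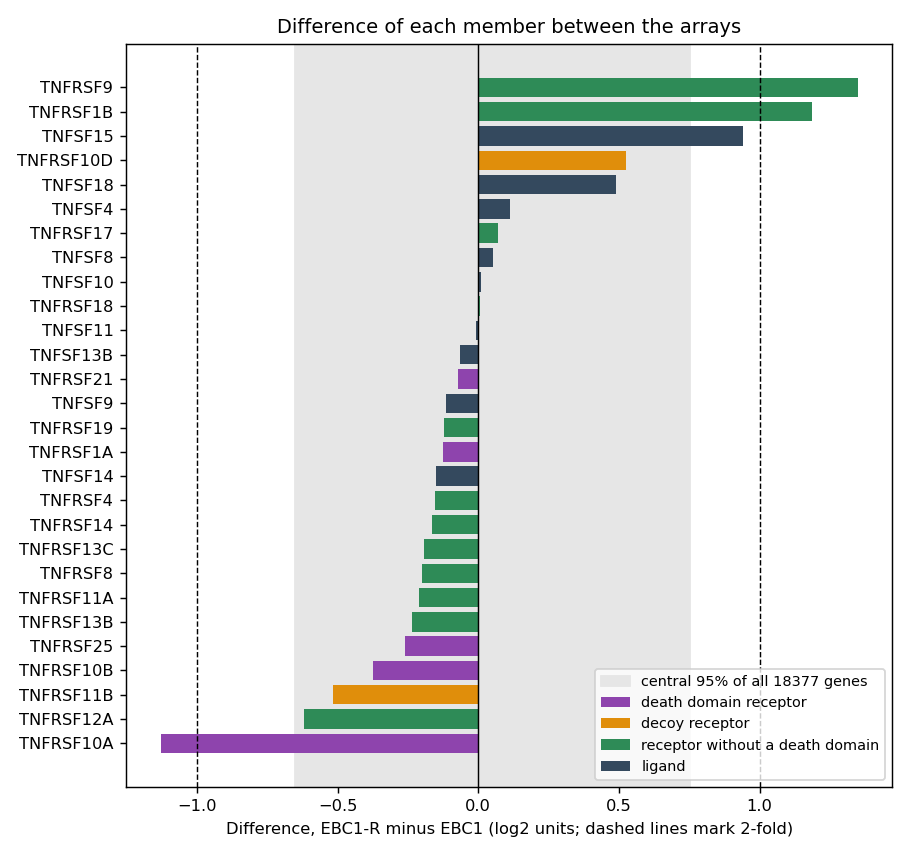
Difference of each member (EBC1-R minus EBC1, log2 units), ordered from highest to lowest and coloured by role, with the central 95% of all genes shaded and dashed lines at 2-fold. TNFRSF9, TNFRSF1B and TNFSF15 lie beyond the shaded range on the higher side and TNFRSF10A on the lower side, while the bars of the 5 death domain receptors with TNFRSF symbols point to the lower side.

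Of the 9 ligands, 5 were higher by any amount, where 43.3% of all genes were, and 4 were lower, with a median difference of 0.01. TNFSF10 (TRAIL) was at 8.80 in EBC1-R and 8.79 in EBC1. TNFSF18, the ligand of TNFRSF18, was at 5.96 in EBC1-R and 5.47 in EBC1, a difference of 0.49 at low intensity. TNFSF9, the ligand of TNFRSF9, was at 7.03 in EBC1-R and 7.14 in EBC1. TNFSF14 (LIGHT), which signals through TNFRSF14 and LTBR, was at 6.76 in EBC1-R and 6.91 in EBC1. TNFSF4, TNFSF8, TNFSF11 (RANKL) and TNFSF13B (BAFF) differed by less than TNFSF14. TNFSF4 was at 4.81 in EBC1-R and 4.70 in EBC1, and TNFSF8 at 6.06 in EBC1-R and 6.01 in EBC1. TNFSF11 was at 5.32 in EBC1-R and 5.33 in EBC1, and TNFSF13B at 5.76 in EBC1-R and 5.83 in EBC1. The signs of TNFSF10 and TNFSF11 depended on the scaling.

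Ligands were set beside their receptors in 18 pairs over 10 ligands, TNF included. TNFRSF9 was higher by 1.35 log2 units while the difference of its ligand TNFSF9 was -0.11. TNFSF15 was higher by 0.94 while the difference of its receptor TNFRSF25 was -0.26. TNFRSF1B was higher by 1.19 and the difference of TNFRSF1A was -0.13, with TNF itself at 5.83 in EBC1-R and 5.75 in EBC1. Around TNFSF10, which differed by 0.01, the differences were -1.13 for TNFRSF10A, -0.37 for TNFRSF10B, 0.52 for TNFRSF10D and -0.52 for TNFRSF11B.

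**Figure D3:**
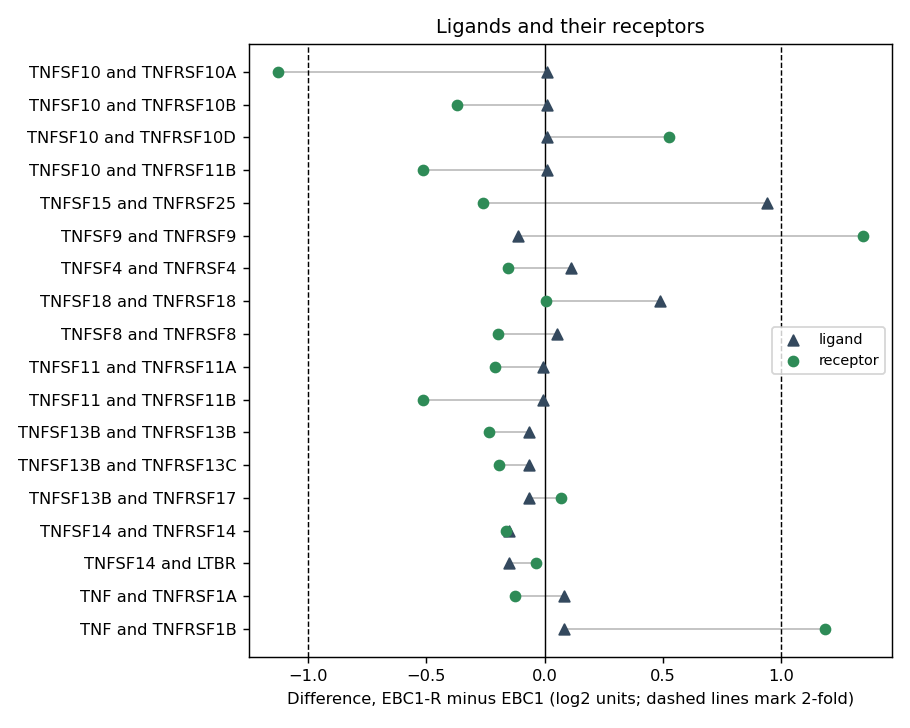
Differences (EBC1-R minus EBC1, log2 units) of each ligand, as a triangle, and of a receptor that binds it, as a circle, for 18 pairs, with dashed lines at 2-fold. In the pairs with a wide gap, 1 partner is far from 0 and the other stays near it.

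Genes beside the members that differed are given for context. Among the 7 receptor genes on chromosome 1, differences ran from -0.26 to 1.35. The 2 at least 2-fold higher, where 1.26% of all genes were, are TNFRSF9 and TNFRSF1B, already counted above. TNFRSF8, next to TNFRSF1B, differed by -0.20, and the 8 measured genes around TNFRSF1B, 4 on each side in RefSeq order, ran from -0.25 to 0.59. The highest of these was DHRS3, a retinal reductase. The 8 around TNFRSF9 ran from -0.55, at the ERBB inhibitor ERRFI1, to 0.43, at the clock gene PER3. The 8 around TNFSF15 ran from -0.63, at tenascin TNC, to 0.25, and included its neighbouring ligand TNFSF8 at 0.05. Around TNFRSF10A the 8 ran from -0.37 to 1.22. The lower end was TNFRSF10B, and the upper end was LOXL2, a lysyl oxidase that crosslinks collagen. Around TNFRSF12A they ran from -0.99, at the kinase PKMYT1, to 1.04, at the cytokine gene IL32, with a median of -0.19. PAQR4, beside PKMYT1, differed by -0.88. Of these 8 neighbours, 2 were at least 1.5-fold lower, where 3.16% of all genes were. In the other direction, 1 was at least 2-fold higher, where 1.26% of all genes were.

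**Figure D4:**
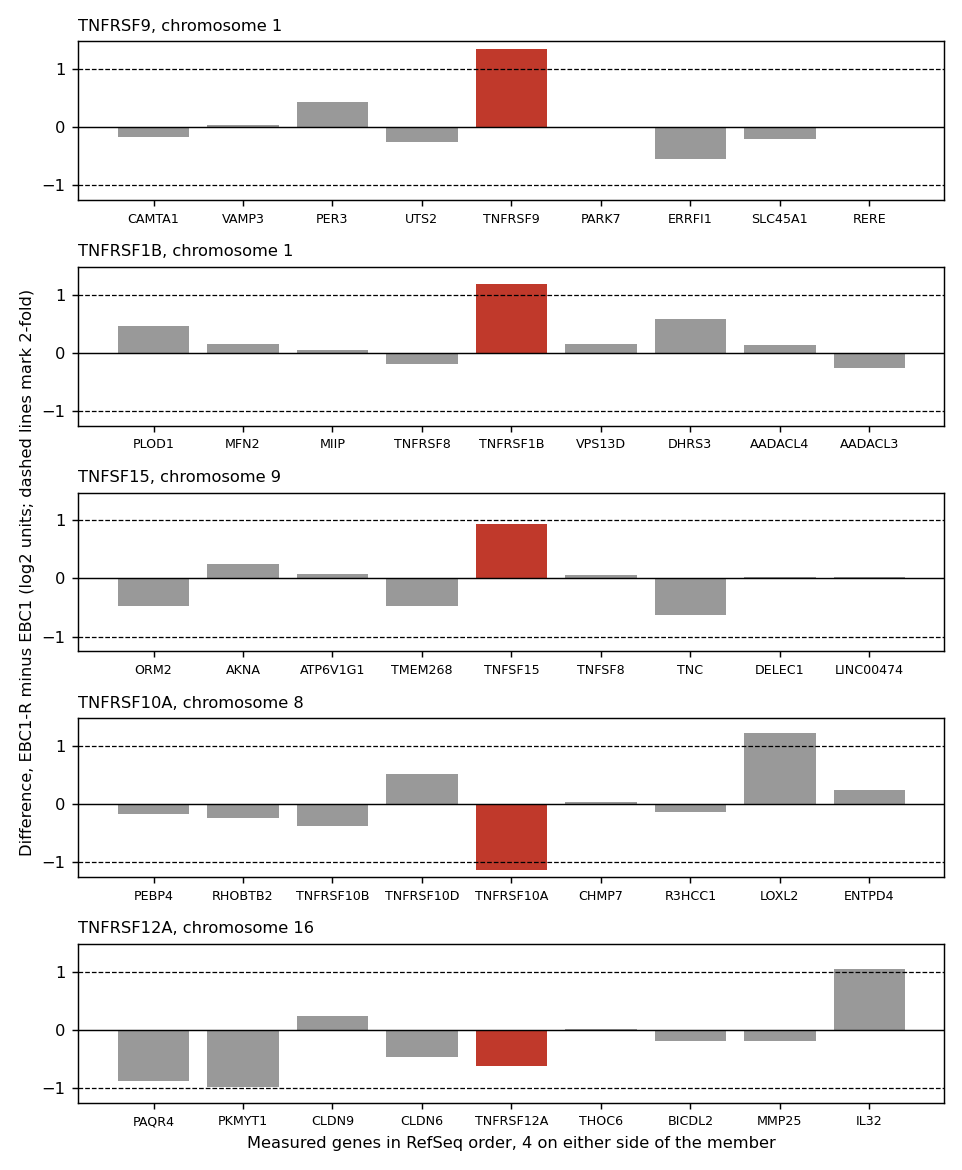
Differences (EBC1-R minus EBC1, log2 units) of the 5 members that differed at least 1.5-fold, in red, and of the 4 measured genes on either side in RefSeq order, in grey, with dashed lines at 2-fold. In the upper 3 panels no grey bar reaches 2-fold, and in the lower panels LOXL2 and IL32 pass the line on the higher side.

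Relatives that carry other symbols were also measured. Of 6 measured ligands, LTA had the widest difference, -0.19, at 5.94 in EBC1-R and 6.12 in EBC1, and 0 of the 6 differed 1.5-fold. Over all genes 4.41% were 1.5-fold higher and 3.16% lower, so a count of 0 in 6 is near the background. Of these ligands, 1 reached the median gene level when both arrays were averaged. Of 8 receptors, CD40, a costimulator of antigen-presenting cells that epithelia can also express, was at 7.85 in EBC1-R and 7.27 in EBC1, a difference of 0.58 just under 1.5-fold. FAS, the death domain receptor of FASLG, was at 7.70 in EBC1-R and 7.51 in EBC1, and LTBR, which drives non-canonical NF-kB, was at 10.46 in EBC1-R and 10.49 in EBC1. The median was -0.07 over these ligands and 0.02 over these receptors.

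Downstream of the receptors, 1 of 26 measured adaptor and ubiquitin genes was 2-fold higher, where 1.26% of all genes were, and 0 were 1.5-fold lower, where 3.16% were. Both counts are near the background of so short a list. The 1 gene was TNFAIP3 (A20 protein), a ubiquitin-editing inhibitor of NF-kB, at 9.68 in EBC1-R and 7.90 in EBC1, a difference of 1.78 or 3.43-fold. Just under 1.5-fold were its binding partner TNIP1, with a difference of 0.54, TRAF6, with 0.54, and TNIP3, with 0.53. TNIP3 was at low intensity, 5.71 in EBC1-R and 5.18 in EBC1. Lower in EBC1-R were TNIP2, by -0.09, IKBKB, by -0.39, and MAP3K14, by -0.38. Of the 26 genes, 16 were higher and 10 lower by any amount, where 43.3% and 55.5% of all genes were. FADD, the adaptor between death receptors and caspases, was at 9.03 in EBC1-R and 9.56 in EBC1, a difference of -0.53, and TRADD, which binds TNFRSF1A, was higher by 0.36. The median difference over the list was 0.10. TNFAIP2, an exocyst-related protein named for its induction by TNF, was at 10.81 in EBC1-R and 9.38 in EBC1, or 2.70-fold higher. The list of TNF-induced proteins was taken by symbol, and induction of its members by TNF was not tested. With TNFAIP3, which both lists hold, TNFAIP2 made up the 2 of 8 that were 2-fold higher, where 1.26% of all genes were. The other 6 lay between -0.30 and 0.12.

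In the death arm, 0 of 12 measured genes differed 1.5-fold, with a median of -0.01. Over all genes 4.41% were 1.5-fold higher and 3.16% lower, so a count of 0 in 12 is near the background. The widest differences were -0.49 for the survival protein BIRC5, -0.42 for CASP6 and 0.37 for CASP10, and the initiator CASP8 differed by 0.28. CFLAR, which blocks CASP8 activation, was at 7.34 in EBC1-R and 7.22 in EBC1. Among 5 proteins of shedding and processing, ADAM17, the protease that releases TNF and TNF receptors, was at 10.43 in EBC1-R and 9.64 in EBC1, or 1.73-fold higher. RHBDF1, a rhomboid-like partner of ADAM17, differed by -0.58, and the other partner, RHBDF2, by 0.22.

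**Figure D5:**
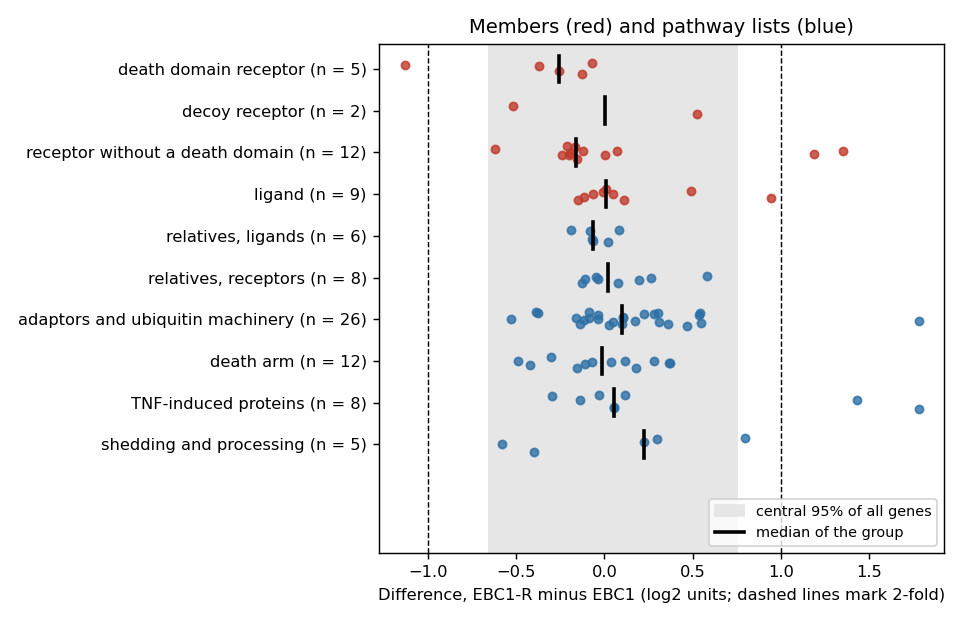
Differences (EBC1-R minus EBC1, log2 units) of the members by role, in red, and of the pathway lists, in blue, with the median of each group as a black bar, the central 95% of all genes shaded and dashed lines at 2-fold. Each list's median lies inside the shaded range, and TNFAIP2, ADAM17 and, in both of its lists, TNFAIP3 lie to the right of it.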

How the data were processed

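Total RNA of EBC1-R and EBC1 cells (1 array each) was extracted with Trizol, and 100 ng was labelled by an Affymetrix whole-transcript protocol, per the labels' protocols. The authors deposited 1 value per probe set, taken here as log2 intensity. Background correction, probe summarization, array normalization and log base were not given in the sources used here. Probe annotation was that of a whole-transcript gene array, not the HG-U133 array that the labels name. Of 28869 probe sets, 19310 had 1 gene symbol, 1752 several and 7807 none. Symbols were updated by gene identifier through RefSeq (GRCh38.p14), and probe sets of a gene were averaged, giving 18377 genes. Each of the 28 members had 1 probe set. Differences are EBC1-R minus EBC1, counted at 2-fold and 1.5-fold, with pandas 2.3.3 and statsmodels 0.14.6 (lowess). The counting was tested on simulated data. Members named in full were those at least 1.5-fold different, the brightest receptors and ligands, the TRAIL system and receptor-ligand pairs, and the rest by level. In the other lists these were members 1.5-fold different or the widest difference, and further genes named were chosen after their values were seen. The members and lists were chosen with earlier results of these data known. The number of arrays limits the precision.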

Additional observations from a re-analysis of the deposited data

How the results depend on the processing

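Alternatives tried were a lowess correction for intensity (span 0.2), quantile normalization, median centring, adding 16 to linear intensities, the brightest probe set of each gene, and members whose mean level reached the median gene. TNFRSF9, TNFRSF1B, TNFSF15, TNFRSF10A and TNFRSF12A kept their direction under the 3 scalings and with 16 added. Each member has 1 probe set, so choosing the brightest probe set could not change a member's value, and the level restriction leaves values as they are. The members' counts at 2-fold and 1.5-fold were the same under every scaling and with 16 added. TNFSF15 ranged from 0.84 with 16 added to 0.98 after lowess, under 2-fold throughout. Only 13 of 28 members reached the median level of 7.28, and among these 0 were 2-fold or 1.5-fold higher, since TNFRSF9, TNFRSF1B and TNFSF15 lay below it. Of all genes at or above that level, 1.77% were 2-fold higher and 6.25% 1.5-fold higher, so a count of 0 in 13 is near the background. Of the same 13 members, 1 was 2-fold lower and 2 were 1.5-fold lower, where 1.51% and 5.23% of such genes were. With the same restriction the median of TNF-induced proteins was 1.43, over 3 members, and that of leukocyte markers 0.40, which is CD68 alone. TNFRSF18, TNFSF10 and TNFSF11, all within 0.02 of 0, changed sign under quantile normalization, and TNFSF11 also under centring and lowess. No paired analysis was possible because there is 1 array per group. Low intensities were not separated from background. Probe sets of the same gene differed with an SD of 0.16 in their differences. That SD covers 376 genes with several probe sets and a mean at or above the median level. It does not describe the lower intensities, where TNFRSF9, TNFRSF1B and TNFSF15 lie.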
